A study of Mus musculus with 2 samples.

Results

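The genes described here are the mouse genes whose symbol is *Zfp* followed by a number and whose estimated read counts in the AAV-GFP and AAV-*Wee1-AS* liver libraries added up to at least 200, so they were chosen by symbol and by summed count. Of 408 such symbols among the 45777 genes of the table, 189 met this rule. The other 219 were left out, and 42 of those were listed at 0 in both libraries. The symbol is a naming convention for zinc finger proteins and not a single protein family. The values that chose the genes are the counts of the same libraries that are compared below, so a gene with few counts in one library could enter only through the other. The symbols just inside the rule were *Zfp120* and *Zfp651* with 207 counts each and *Zfp27* with 209, and those just outside it were *Zfp661* with 198, *Zfp942* with 195 and *Zfp626* with 193.

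The livers were those of C57BL/6 N mice kept on a HFD (high-fat diet) for 18 weeks from an age of 7 weeks. One group received AAV-GFP, an adeno-associated virus that carries green fluorescent protein, and the other AAV-*Wee1-AS*, which carries the long noncoding RNA *Wee1-AS*, transcribed antisense to *Wee1*. Both were given into the retro-orbital sinus at week 13, so the control livers share the diet and a viral vector. The vector is of serotype AAV9 with a CMV promoter and is not specific to hepatocytes. 1 library per group was analysed, although the series mentions 4 liver samples, and whether RNA of several mice was pooled is not stated. The comparison therefore has no replicate check, and no p-value is given. The libraries held 55466182 (AAV-GFP) and 48079335 (AAV-*Wee1-AS*) estimated counts. The hepatocyte markers *Alb*, *Apoa1*, *Ttr*, *Cyp2e1*, *Cps1*, *Serpina1a* and *Pck1* summed to 83084 and 92662 TPM (a level scaled to transcript length and to the library), so the defining markers of the labelled tissue were present in both.

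Most proteins of this name carry C2H2 zinc fingers, short folds in which a pair of cysteines and a pair of histidines hold a zinc ion, and which read a few bases of DNA each. Many are arranged in long arrays joined by a conserved linker. A large subclass also has a KRAB box, which recruits the corepressor TRIM28 and, through it, the histone methyltransferase SETDB1 and HP1 proteins, and is best known for the silencing of retroelements and of imprinted regions. Others have no KRAB box and act as transcription factors, RNA-binding proteins, ribosome factors or ubiquitin ligases. In the liver, the CCCH protein ZFP36 and its relatives limit the lifetime of inflammatory messages.

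The base composition of these genes differs widely, and the results below run along it. To show this at the level of the protein motif, the coding sequence of the first finger followed by the linker threonine-glycine-glutamate-lysine-proline is given for the 4 genes with the highest and the 4 with the lowest AAV-*Wee1-AS* to AAV-GFP ratio among the 96 that have such a finger within 1 exon. Sequences are from GENCODE transcripts of the build GRCm38 (mm10), 5′ to 3′ on the coding strand, and capitals mark the codons of the 2 cysteines and 2 histidines.
Zfp612, chr8:110089009-110089086, + strand: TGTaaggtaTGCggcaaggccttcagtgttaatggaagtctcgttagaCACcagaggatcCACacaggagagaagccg
Zfp715, chr7:43299134-43299211, - strand: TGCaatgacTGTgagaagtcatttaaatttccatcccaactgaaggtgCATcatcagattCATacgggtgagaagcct
Zfp955a, chr17:33241618-33241695, - strand: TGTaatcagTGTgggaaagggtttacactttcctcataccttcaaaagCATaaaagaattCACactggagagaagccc
Zfp266, chr9:20499602-20499679, - strand: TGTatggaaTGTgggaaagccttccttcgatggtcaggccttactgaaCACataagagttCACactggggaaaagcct
Zfp771, chr7:127254024-127254101, + strand: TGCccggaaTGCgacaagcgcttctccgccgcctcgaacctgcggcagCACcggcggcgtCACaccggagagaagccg
Zfp787, chr7:6132888-6132965, - strand: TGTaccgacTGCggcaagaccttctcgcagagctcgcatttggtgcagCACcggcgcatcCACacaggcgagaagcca
Zfp213, chr17:23558008-23558085, - strand: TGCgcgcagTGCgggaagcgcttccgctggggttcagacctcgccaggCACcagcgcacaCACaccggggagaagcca
Zfp775, chr6:48619509-48619586, + strand: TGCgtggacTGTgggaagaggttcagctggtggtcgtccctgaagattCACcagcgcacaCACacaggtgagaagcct

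All 8 stretches are 78 bases long and lie in coding exons. The 4 genes with high ratios had a GC content of 51.3%, 42.3%, 41.0% and 47.4% in this stretch in the order given, and the 4 with low ratios had 70.5%, 61.5%, 69.2% and 57.7%. Over all 96 stretches, the median was 43.6% in the 55 genes with a ratio above 2 and 59.6% in the 18 genes with a ratio below 1. It was 53.8% in the 23 genes between. The difference in GC content is therefore present within the finger motif itself, and this is a description of the genes, not a test.

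The question of the comparison was which of these genes differed between HFD-fed livers with AAV-*Wee1-AS* and those with AAV-GFP. Counts were scaled between the libraries by the TMM method, and each ratio, AAV-*Wee1-AS* over AAV-GFP, was expressed on the log2 scale with a prior count of 2. In the AAV-*Wee1-AS* library, 133 of the 189 genes had the higher scaled count and 56 the lower one. The ratio was above 2 for 86 genes (45.5%), beside 21.1% of the 11081 genes of the table that met the same count rule. It was below 0.5 for 2 genes, *Zfp593* and *Zfp385a*, beside 5.19% of all genes. The median log2 ratio was 0.89, and that of all genes tested was -0.03. The ratios ran from -1.12 to 3.08.

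A 95% counting interval (Clopper-Pearson) was computed for each gene. It treats the estimated counts as independent reads and covers counting error only. Mice, preparation and the division of counts among overlapping transcripts are not covered. The interval lay wholly above a ratio of 1 for 125 *Zfp* genes and wholly below it for 36, beside 43.2% and 44.9% of all genes. It lay wholly above 2 for 74 *Zfp* genes, beside 17.6% of all genes, and wholly below 0.5 for none, beside 2.65%. At the depth of these libraries, counting error as given by this interval was thus small beside most of the differences, *Zfp* genes and others alike.

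**Figure D1:**
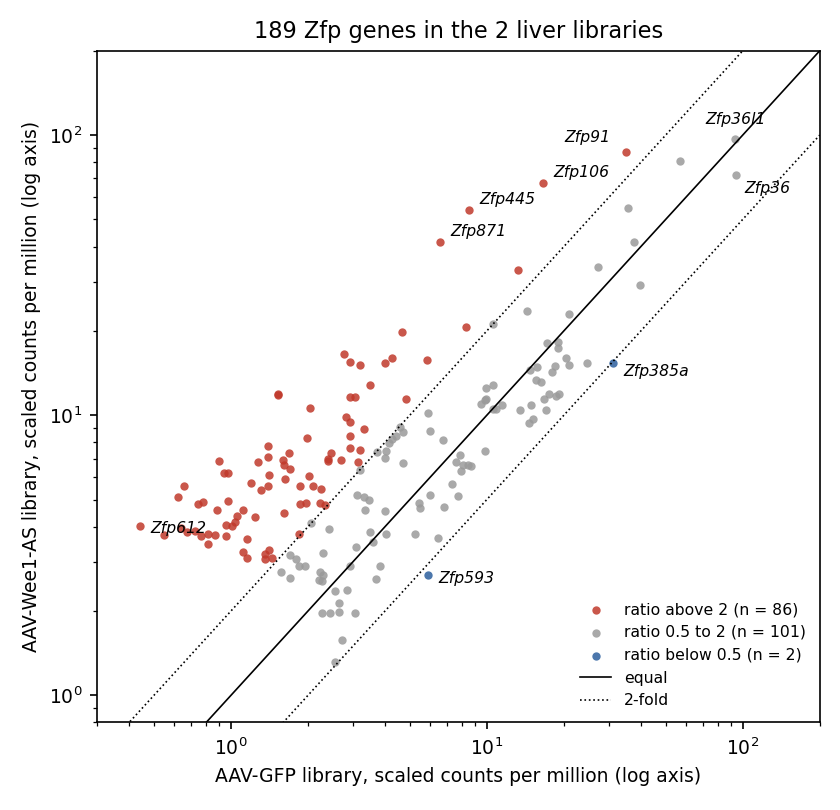
Scaled counts (CPM) of the 189 *Zfp* genes in the AAV-GFP library (x axis) and the AAV-*Wee1-AS* library (y axis), both on log axes, 1 point per gene. The solid line marks equal levels and the dotted lines a 2-fold difference of these scaled counts, without the prior count of 2. The genes above the upper dotted line lie mostly at the left, where AAV-GFP counts were low, and 2 genes lie below the lower one.

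The excess over the background depended on the count rule. Only 84 of the 189 genes had at least 200 counts in the AAV-GFP library by itself. Among these, 11 (13.1%) had a ratio above 2, beside 15.7% of the 9335 genes of the table that met this rule. The median log2 ratio of the 84 genes was -0.06, beside -0.15 in the 9335. These 11 genes were *Zfp445*, *Zfp871*, *Zfp148*, *Zfp106*, *Zfp874a*, *Zfp24*, *Zfp318*, *Zfp655*, *Zfp110*, *Zfp91* and *Zfp236*. In contrast, 50 genes had under 100 counts in the AAV-GFP library and so met the rule through the AAV-*Wee1-AS* library. All 50 were necessarily higher there, 47 had a ratio above 2, and their median log2 ratio was 2.07. Of the 86 genes above 2-fold, 75 therefore had under 200 counts in the AAV-GFP library. Among the 219 symbols left out, 154 had at least 10 counts in 1 of the libraries, and 134 of these (87.0%) were higher in AAV-*Wee1-AS*, with a median log2 ratio of 1.27. Among all 4776 genes of the table in that range of counts, 51.2% were higher and the median was 0.03.

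**Figure D2:**
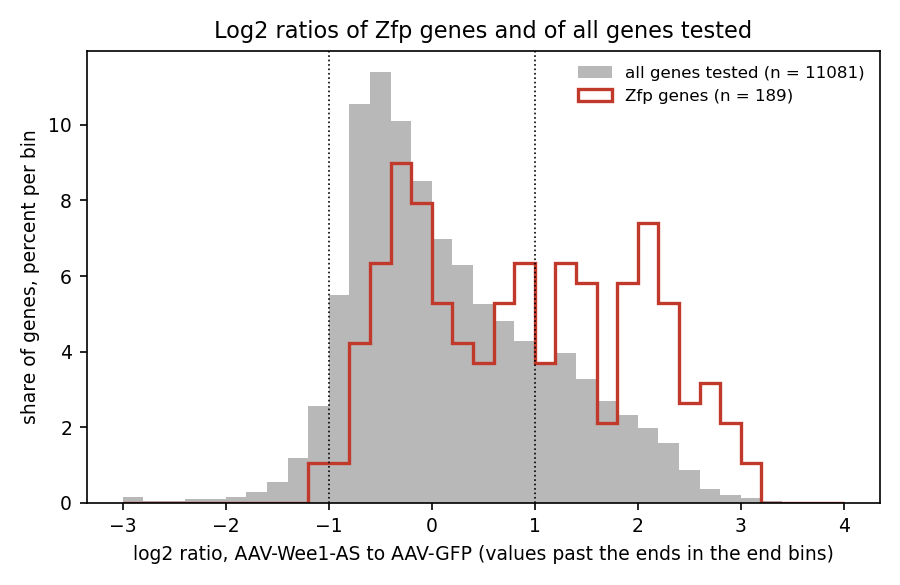
Share of genes (y axis, percent per bin) by log2 ratio, AAV-*Wee1-AS* over AAV-GFP (x axis), for the 11081 genes tested (grey) and the 189 *Zfp* genes (red line). Dotted lines mark ratios of 0.5 and 2; both sets have many genes just below 0, and a larger share of the *Zfp* genes lies above 1.

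In level, most of these genes were scarce messages. In the AAV-GFP library they ran from 0.111 to 91.8 TPM with a median of 1.37, and 74 of them stood under 1 TPM, whereas 16 did so in the AAV-*Wee1-AS* library. Only *Zfp36*, *Zfp36l1*, *Zfp706*, *Zfp207*, *Zfp598*, *Zfp524* and *Zfp385a* exceeded 20 TPM in AAV-GFP. Together, the 189 genes took 0.144% of the counts of the AAV-GFP library and 0.198% of those of AAV-*Wee1-AS*, and their summed level was 787 and 930 TPM.

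The highest ratio was that of *Zfp612* (chr8:110079705-110092753), a KRAB gene with 16 fingers, with 25 counts in AAV-GFP and 189 in AAV-*Wee1-AS*. Its log2 ratio was 3.08 (95% counting interval 2.58 to 3.85), an 8.43-fold higher scaled count. *Zfp715* (chr7:43296522-43313300) had 37 and 264 counts and a log2 ratio of 3.03 (2.60 to 3.64), and it carries 18 fingers. *Zfp955a* had 35 and 240 counts and a log2 ratio of 2.96 (2.53 to 3.60). These values rest on fewer than 40 AAV-GFP counts each, and their intervals are accordingly wide.

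*Zfp266* had 86 and 562 counts, a log2 ratio of 2.94 (2.64 to 3.32). *Zfp146*, a small protein made of little more than 10 fingers, had 86 and 557 counts, a log2 ratio of 2.93 (2.63 to 3.30). *Zfp292*, a large transcription factor, had 51 and 324 counts, a log2 ratio of 2.88 (2.50 to 3.39). *Zfp146* and *Zfp292* lack a KRAB-like sequence, so the highest ratios were not restricted to KRAB genes. *Zfp120* had 31 and 176 counts and *Zfp597* 53 and 293, with log2 ratios of 2.69 and 2.68. *Zfp597* overlaps *Naa60*, which held 6825 and 6250 counts, and it is not stated whether the counting used the strand. Of the 10 highest, *Zfp445* and *Zfp871* had the most counts. *Zfp871* had 372 and 1951 counts, a log2 ratio of 2.65 (2.49 to 2.82).

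At the other end, *Zfp593*, a factor of large ribosomal subunit assembly, had 333 counts in AAV-GFP and 127 in AAV-*Wee1-AS*. Its log2 ratio was -1.12 (-1.43 to -0.83). *Zfp385a*, a double-stranded RNA-binding protein, had 1752 and 720 counts, a log2 ratio of -1.02 (-1.15 to -0.89). Both intervals reach past the limit of 0.5, so a smaller difference is within counting error. The next lowest were *Zfp651* (145 and 62 counts, -0.94), *Zfp628* (364 and 171, -0.82) and *Zfp775* (154 and 74, -0.78). The direction of *Zfp628* turned with curated RefSeq transcripts only, to 0.40. *Zfp524*, *Zfp276*, *Zfp523*, *Zfp687* and *Zfp358* followed with log2 ratios from -0.71 to -0.65 on 458 counts or more in each library. With the GC content and length trends described below removed, *Zfp524* and *Zfp358* turned to 0.09 and 0.06. None of these 10 had a KRAB-like sequence, and 9 of them had a GC content of 55% or more, *Zfp523* with 52.0% being the exception. *Zfp687* and *Zfp276* overlap the genes *Pi4kb* and *Vps9d1*, which were also lower (log2 ratios of -0.21 and -0.26).

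**Figure D3:**
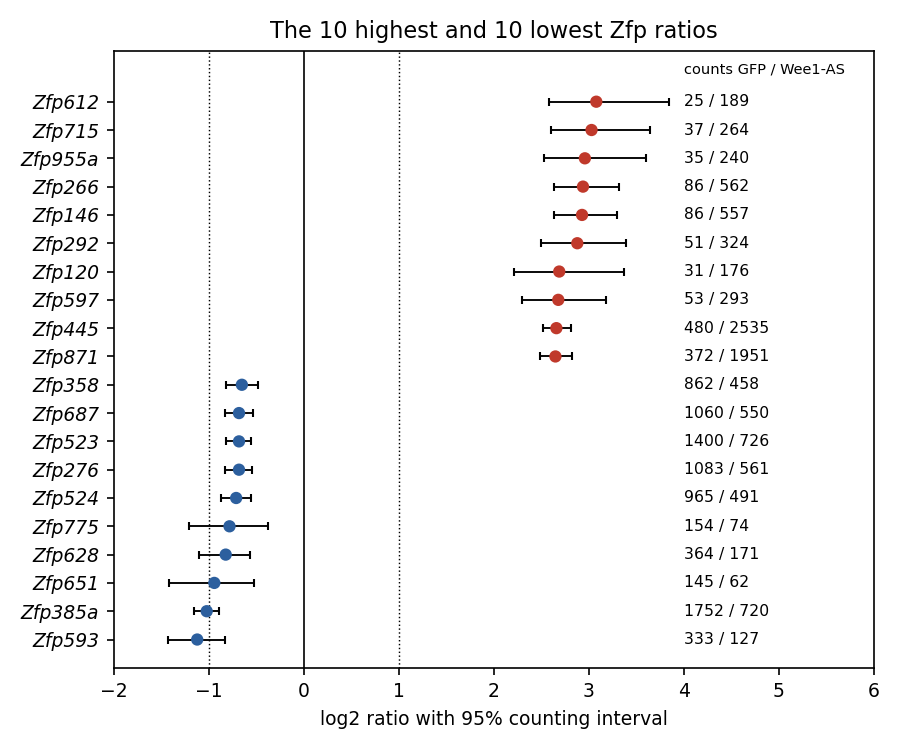
Log2 ratio, AAV-*Wee1-AS* over AAV-GFP, with its 95% counting interval (x axis) for the 10 highest (red) and 10 lowest (blue) *Zfp* genes (y axis), with the estimated counts of both libraries at the right. The intervals are widest for genes with few AAV-GFP counts, and those of *Zfp593* and *Zfp385a* cross the dotted line at -1.

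Among the CCCH proteins, which bind AU-rich elements in messages and bring about their decay, no gene passed 2-fold with TMM scaling. *Zfp36* (tristetraprolin) was the most abundant *Zfp* gene per length in both libraries, with 91.8 TPM in AAV-GFP and 69.0 TPM in AAV-*Wee1-AS*, and its counts of 5336 and 3401 gave a log2 ratio of -0.39 (-0.45 to -0.32). *Zfp36l1* was nearly level, with 5268 and 4570 counts and a log2 ratio of 0.06. *Zfp36l2* was higher in AAV-*Wee1-AS*, with 2019 and 2588 counts and a log2 ratio of 0.62 (0.54 to 0.71). With the trends removed, *Zfp36* stood at 0.15 and *Zfp36l2* at 1.09, and with upper quartile scaling *Zfp36l1* stood at -0.15. The fourth relative, *Zfp36l3*, was listed at 0 in both libraries.

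Of 12 genes listed for RNA, ribosome and ubiquitin functions, 4 were above 2-fold and 2 below 0.5, beside 21.1% and 5.19% of all genes, and the median log2 ratio was 0.41. After removal of the GC content and length trends described below, none was above 2-fold, beside 4.69% of all genes, and the median was -0.10. *Zfp598*, the ubiquitin ligase that senses collided ribosomes, had 2234 and 1374 counts (log2 ratio -0.44, and 0.24 with the trends removed), and *Zfp622*, a factor of large subunit maturation, had 1012 and 672 (-0.33, and -1.37). The 4 genes above 2-fold were *Zfp638*, *Zfp106*, *Zfp326* and *Zfp91*. *Zfp106*, an RNA-binding protein, had 939 and 3177 counts, a log2 ratio of 2.02 (1.92 to 2.13). *Zfp638*, an RNA- and DNA-binding nuclear protein, had 166 and 731 counts, a log2 ratio of 2.39 (2.16 to 2.65). *Zfp91*, a ubiquitin ligase, had 1988 and 4085 counts, a log2 ratio of 1.30 (1.22 to 1.38), and *Zfp326*, which links messenger RNA particles to RNA polymerase, had 105 and 264 (1.57). *Zfp706* (3211 and 3808 counts), *Zfp207*, a spindle assembly protein (1536 and 1587), and *Zfp330* (240 and 389) had log2 ratios of 0.51, 0.31 and 0.95. *Zfp346*, which binds double-stranded RNA, was level with 203 and 167 counts and a log2 ratio of -0.02. Thus the abundant members of this group went in both directions.

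The repressors of imprinted regions and retroelements are KRAB proteins, and 3 of 7 listed met the count rule. All 3 had a ratio above 2, beside 21.1% of all genes. With the GC content and length trends described below removed, only *Zfp445* of the 3 was above 2-fold (1.30), and *Zfp568* and *Zfp809* stood at 0.92 and 0.87. *Zfp445*, which maintains methylation at imprinted regions, had 480 counts in AAV-GFP and 2535 in AAV-*Wee1-AS*, a log2 ratio of 2.66 (2.52 to 2.81), and 2.29 against 14.1 TPM. With curated RefSeq transcripts only its log2 ratio was 0.69, and that of its transcript with the most counts was 3.88, so its call was lost with the curated transcripts. *Zfp568*, a repressor of a placental *Igf2* promoter, had 159 and 466 counts, a log2 ratio of 1.80 (1.55 to 2.08). *Zfp809*, which silences proviruses through their primer binding site, had 188 and 420 counts, a log2 ratio of 1.41 (1.17 to 1.68). *Zfp445* overlaps *Zkscan7*, which had 217 and 594 counts. Of the genes that missed the rule, *Zfp932* had 48 and 95 counts and *Zfp708* had 21 and 94, *Zfp57* had 0 and 5, and *Zfp92* was listed at 0 in both libraries.

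Among 24 listed chromatin and transcription factors outside the KRAB class, 22 met the count rule, 9 were above 2-fold and none was below 0.5, beside 21.1% and 5.19% of all genes, and the median log2 ratio was 0.84. With the trends removed, none was above 2-fold, beside 4.69% of all genes, and the median was 0.18. *Zfp148* and *Zfp281*, related factors that bind GC-rich promoters, had 263 and 933 and 166 and 547 counts and log2 ratios of 2.08 and 1.97. *Zfp518a* had 36 and 187 counts (2.57), and *Zfp644*, a partner of the G9a and GLP methyltransferases, 112 and 390 (2.04). *Zfp451*, a SUMO ligase, had 96 and 304 (1.90). *Zfp260*, *Zfp143* and *Zfp318* had log2 ratios of 1.85, 1.45 and 1.43, and with *Zfp292* complete the 9. Of these, *Zfp518a*, *Zfp292*, *Zfp143* and *Zfp451* had under 100 AAV-GFP counts (36, 51, 91 and 96). They met the count rule through AAV-*Wee1-AS* and were necessarily higher there. Only *Zfp148* and *Zfp318* (263 and 330) had at least 200 counts in AAV-GFP alone. *Zfp143* binds promoters and anchors of chromatin loops.

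Others of this list differed less or were lower. *Zfp652* and *Zfp704* had log2 ratios of 0.98 each, just inside 2-fold. *Zfp609*, which cooperates with the Integrator complex, had 815 and 1107 counts (0.70), and *Zfp532*, *Zfp277* and *Zfp217* had log2 ratios of 0.56, 0.55 and 0.52. *Zfp410*, an activator of *Chd4*, was close to level with 601 and 605 counts (0.27), as were *Zfp592* (0.14, and -0.07 with upper-quartile scaling) and, over all its transcripts, *Zfp384* (-0.13). The transcript of *Zfp384* with the most counts had a log2 ratio of 1.87. *Zfp703*, *Zfp335*, *Zfp219* and *Zfp687* had log2 ratios of -0.38, -0.44, -0.47 and -0.68. With the trends removed, *Zfp703*, *Zfp335* and *Zfp219* turned to 0.34, 0.07 and 0.28, *Zfp384* to 0.19, and *Zfp652*, *Zfp704*, *Zfp410*, *Zfp592* and *Zfp277* to -0.30, -0.15, -0.38, -0.15 and -0.88. *Zfp687*, *Zfp592* and *Zfp532*, which are paralogs, therefore took different positions, from -0.68 to 0.56.

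Of 10 genes listed for adipose and metabolic functions, 9 were in the table and 5 met the rule. *Zfp407* (74 and 254 counts, log2 ratio 2.01) and *Zfp638* were above 2-fold, beside 21.1% of all genes, and with the trends removed they stood at 1.16 and 0.41. *Zfp407* met the rule through AAV-*Wee1-AS* and was necessarily higher there. *Zfp516*, an activator of the brown fat program, had 195 and 235 counts (0.53), and *Zfp467* had 1048 and 705 (-0.31, and 0.30 with the trends removed). *Zfp423*, a determinant of preadipocytes, missed the rule with 75 and 49 counts. *Zfp395*, among the 10 most abundant *Zfp* genes, had 2127 and 1957 counts and a log2 ratio of 0.14, which turned to -0.06 with upper-quartile scaling.

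The proteins were next sorted by structure, from translated GENCODE coding sequences of 188 of the 189 genes (*Zfp33b* had none). A KRAB-like sequence, found with a broader pattern chosen after a stricter one had missed known KRAB genes, was present in 74. In these, 53 (71.6%) had a ratio above 2, beside 21.1% of all genes, none was below 0.5, and the median log2 ratio was 1.41. In the 114 genes without it, 32 (28.1%) had a ratio above 2 and the median was 0.21. The KRAB-like genes were scarcer, with a median of 338 summed counts and 0.703 TPM in AAV-GFP, against 716 and 3.03 in the others. Genes with few AAV-GFP counts met the count rule only through AAV-*Wee1-AS*, where they were necessarily higher. The shares of the classes are therefore not free of the count rule. With the GC content and length trends removed, 17 of the 74 (23.0%) and 8 of the 114 (7.02%) were above 2-fold, beside 4.69% of all genes. The medians were then 0.49 and 0.28. With the stricter pattern, the medians before removal were 1.36 for 39 genes and 0.62 for 149. Their difference moved from 0.74 to 0.52 with at least 200 counts required in AAV-GFP alone. By number of fingers, found as the pattern of cysteines and histidines, the median log2 ratio was 0.22 in the 8 genes with none, 0.27 in 47 genes with 1 to 5, 0.89 in 52 genes with 6 to 9, and 1.29 in 81 genes with 10 or more. With the trends removed, the medians of these 4 classes were 0.33, 0.09, 0.33 and 0.44. Their median summed counts fell in the same order, from 1008 to 786, 492 and 375, so the same limit holds here. The 8 genes without the pattern included the 3 CCCH genes.

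The structural classes also differed in base composition. The median GC content of the longest transcript was 42.0% in the KRAB-like genes and 50.9% in the others, and it was 44.5% in genes with 10 or more fingers. Among genes with under 45% GC, the median log2 ratio was 1.81 in 52 KRAB-like genes and 1.90 in 33 others. Among genes with 45% to 55% GC, it was 1.15 in 18 KRAB-like genes and 0.30 in 47 others. The medians of the classes were thus close at low GC content and apart in the middle range, where the KRAB-like genes were few.

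Across all 188 genes, the log2 ratio followed GC content, with a Spearman coefficient of -0.78, and it did so with -0.74 across the 10949 genes of the table with a GC value. These are descriptions across genes of the same 2 libraries, and genes are not independent replicates. Of 85 *Zfp* genes with under 45% GC, 68 (80.0%) had a ratio above 2 and the median was 1.90, beside 58.9% and a median of 1.24 in all genes of that range. Of 65 genes with 45% to 55% GC, 17 (26.2%) had a ratio above 2 and the median was 0.52, beside 12.8% and -0.04. Of 38 genes with 55% GC or more, none had a ratio above 2 and the median was -0.39, beside 0.242% and -0.64. When all genes were cut into 10 equal ranges of GC content, the median of the *Zfp* genes was above that of all genes in each range, and 139 of 188 (73.9%) lay above the median of their range. Of the 49 genes with a GC value that had under 100 counts in AAV-GFP and so met the count rule through the other library, 45 lay above it. With at least 200 AAV-GFP counts required of all genes, the median of the *Zfp* genes was above in 8 of the 10 ranges, and 59 of 84 (70.2%) lay above the median of their range. The median GC content was 46.6% in the *Zfp* genes and 50.0% in all genes tested, and 92 (48.9%) of the *Zfp* genes fell into the 3 lowest ranges.

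**Figure D4:**
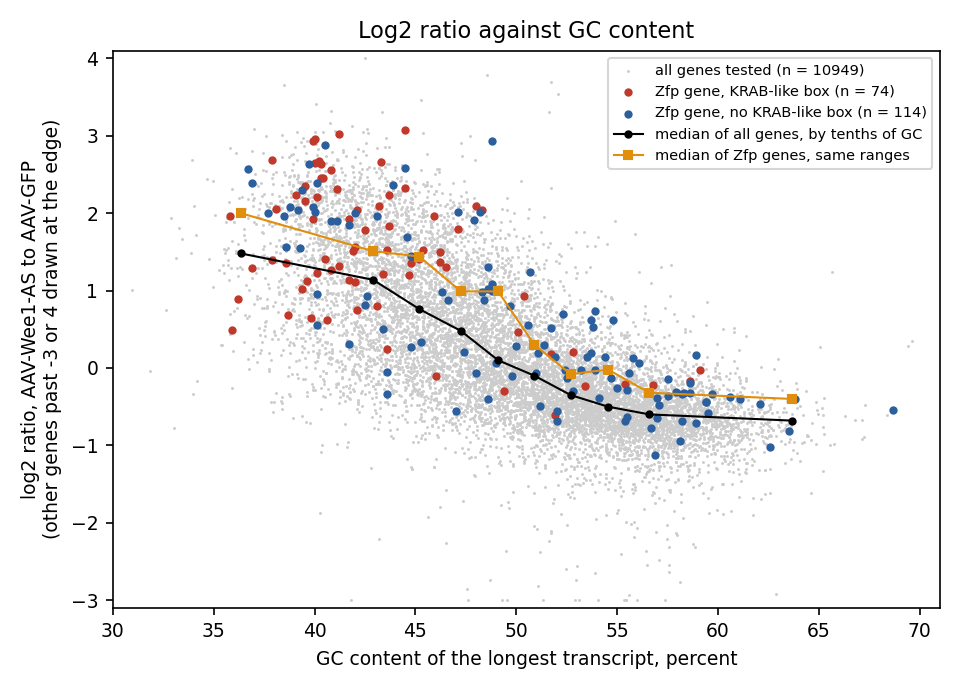
Log2 ratio, AAV-*Wee1-AS* over AAV-GFP, (y axis) against GC content of the longest transcript in percent (x axis) for 10949 genes tested (grey), 74 KRAB-like *Zfp* genes (red) and 114 others (blue). Lines join the medians of all genes (black) and of *Zfp* genes (orange) in 10 equal ranges of GC content; both descend, and the orange line stays above the black one.

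Length and level moved with the ratio too. The Spearman coefficient with transcript length was 0.30 in the *Zfp* genes and 0.41 in all genes, and that with the AAV-GFP count was -0.71 and -0.37. The AAV-GFP count is part of the ratio, so this coefficient has a negative component by construction. In the lowest of 5 equal ranges of summed count, which held 102 of the *Zfp* genes, 60.8% of these and 27.7% of all genes had a ratio above 2. In the next ranges, with 45, 29, 9 and 4 *Zfp* genes, the shares were 37.8% beside 27.6%, 6.90% beside 23.7%, 44.4% beside 16.2%, and 1 of 4 genes beside 10.4%.

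When the trends over all genes with GC content and length were removed, 25 *Zfp* genes were above 2-fold, beside 4.69% of all genes, and 3 were below 0.5, beside 5.52%. The median log2 ratio was then 0.32. Of the 25, 22 had been above 2-fold before, and *Zfp36l2*, *Zfp839* and *Zfp1* had not. Of the 25, 17 had under 100 counts in the AAV-GFP library and so had entered through the other one. Among the 84 genes with at least 200 AAV-GFP counts, 2 (2.38%) were above 2-fold, *Zfp445* and *Zfp36l2*, beside 3.11% of all genes under that rule, and the median was 0.11, beside -0.04. Of these 84, 58.3% were above 0, beside 47.1% of all genes. The highest values were those of *Zfp146* (2.92), *Zfp612* (2.07), *Zfp189* (1.88) and *Zfp790* (1.85), and *Zfp445* kept 1.30. *Zfp36l2* stood at 1.09, whereas *Zfp871*, *Zfp106* and *Zfp148* came inside the limits with 0.56, 0.94 and 0.04. The 3 genes below 0.5 were *Zfp622* (-1.37), *Zfp945* (-1.36) and *Zfp41* (-1.22), and neither *Zfp593* nor *Zfp385a* was among them. Of the 59 genes named for their ratio, summed count or list, 20 changed sign, such as *Zfp706* (from 0.51 to -0.56), *Zfp207* (0.31 to -0.85), *Zfp277* (0.55 to -0.88), *Zfp330* (0.95 to -0.35), *Zfp652* (0.98 to -0.30), *Zfp598* (-0.44 to 0.24) and *Zfp36* (-0.39 to 0.15). Of the 27 of these 59 genes past 2-fold, 18 came inside it, and *Zfp318* (1.43 to -0.19) and *Zfp451* (1.90 to -0.18) also turned. Outside the 59, the near-identical genes *Zfp874b* (1.27 to -0.02) and *Zfp965* (0.89 to -0.36) turned as well. *Zfp1*, *Zfp839*, *Zfp189*, *Zfp790*, *Zfp945* and *Zfp41* are outside the rule for named genes and were chosen after their values were seen, as were *Zfp397*, *Zfp35*, *Zfp799*, *Zfp24*, *Zfp655*, *Zfp110*, *Zfp236*, *Zfp729a*, *Zfp26*, *Zfp426*, *Zfp33b* and, for their sequences, *Zfp771*, *Zfp787* and *Zfp213*. The part of base composition in the ratios was not tested beyond this.

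Other families with similar domains were set beside the *Zfp* genes under the same count rule. The median log2 ratio was 0.34 in 31 *Zbtb* genes, which join C2H2 fingers to a BTB domain, 0.08 in 12 *Klf* genes, which have 3 fingers and bind GC-rich sites, and 0.28 in 13 *Zc3h* genes with CCCH fingers. Of these 56 genes, 18 (32.1%) had a ratio above 2, beside 21.1% of all genes, and the median was 0.26. Their median GC content was 50.0%, against 46.6% in the *Zfp* genes. With the trends removed, 4 of the 56 were above 2-fold, beside 4.69% of all genes. The *Klf* median then turned to -0.12 and the pooled median was 0.15, with the *Zfp* median above the pooled one by 0.17. With 200 counts required in the AAV-GFP library, the *Zfp* median was below that of the pooled families by 0.15, so the order of the groups is not settled by these values.

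The genes lie in groups on the chromosomes, as tandem duplications of KRAB genes do. 55 of them formed 11 runs of 3 or more with gaps of at most 300 kb, and the runs differed. In the runs, 30 of the 55 genes were above 2-fold, against 56 of 134 outside them and 21.1% of all genes. All 6 genes on chromosome 13 at 67440431 to 67729178 (mm10) were above 2-fold, among them *Zfp729a* (41 and 182 counts, log2 ratio 2.35) and *Zfp874a*. All 7 on chromosome 17 at 32765496 to 33307239, from *Zfp871* to *Zfp955b*, had log2 ratios from 1.11 to 2.96. All 6 on chromosome 7 at 29768552 to 30169775, which include *Zfp568*, *Zfp260* and *Zfp146*, had log2 ratios from 1.50 to 2.93. On chromosome 9, *Zfp26*, *Zfp426* and *Zfp266* had log2 ratios of 2.64, 1.52 and 2.94. In contrast, none of the 8 genes on chromosome 7 at 127233061 to 127885996 and none of the 5 at 4915181 to 5038446 was above 2-fold, with medians of -0.18 and -0.40. The runs named with high ratios had median GC contents between 39.7% and 47.6%, and these last 2 had 53.5% and 58.9%. Of the other runs, that of *Zfp397*, *Zfp35* and *Zfp24* had all 3 genes above 2-fold, with log2 ratios from 1.90 to 2.36, and 4 runs were mixed, with 2 of 4 genes on chromosome 8, 1 of 6 on chromosome 6, and 1 of 4 and 1 of 3 on chromosome 7. With the trends removed, 8 of the 55 genes in runs and 17 of those outside were above 2-fold, with medians of 0.43 and 0.29. None of the 6 genes of the run on chromosome 13 was then above 2-fold, nor were 5 of the 7 on chromosome 17, where *Zfp799* turned from 1.11 to -0.41, whereas 3 of the 6 on chromosome 7, 1 of the 3 on chromosome 9 and 1 of the 3 in the run of *Zfp397* were. Of the genes of these 5 runs, in the same order, 3, 5, 3, 2 and 1 had under 100 AAV-GFP counts.

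The transcripts summed for a gene mattered for other named genes too. In 6 of 52 named genes, the transcript with the most counts was at 0 in AAV-GFP. Estimated counts are divided among overlapping transcripts, so such a 0 may come from that division, and no fold is given. The transcript was chosen by its summed count and could enter through AAV-*Wee1-AS* alone. That transcript had 0 and 252 counts for *Zfp715*, 0 and 474 for *Zfp266* and 0 and 318 for *Zfp217*. Over all transcripts, *Zfp217* had 266 and 318 counts and a log2 ratio of 0.52. The transcript with the most counts had 0 and 440 counts for *Zfp568*, 0 and 246 for *Zfp638* and 0 and 207 for *Zfp644*. Over all transcripts, these genes had 159, 166 and 112 counts in AAV-GFP. With curated transcripts only, *Zfp715* and *Zfp451* (0 and 293) were at 0 in AAV-GFP. For the transcript with the most counts, *Zfp281* had a log2 ratio of 0.84 against 1.97 over all transcripts, *Zfp335* one of -1.94 against -0.44, *Zfp467* one of -1.26 against -0.31 and *Zfp524* one of -1.47 against -0.71. *Zfp385a* had -2.27 against -1.02. Of the 52 named genes, 24 moved outside the counting interval of their log2 ratio in this way and 1 changed sign.

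Neighbours in a run, and genes outside the runs, can be near copies, and estimated counts of such genes are uncertain. *Zfp955a* and *Zfp955b* were 98.2% identical over 1635 aligned coding bases, and had log2 ratios of 2.96 and 1.92. *Zfp874a* and *Zfp874b* were 95.5% identical, with 227 and 724 counts and 127 and 258 counts. *Zfp965* had a log2 ratio of 0.89 and *Zfp970* one of 2.56, and their coding sequences were 96.4% identical over 897 bases. In all, 6 of the *Zfp* genes had such a copy, and without them 81 genes remained above 2-fold with a median of 0.81.

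Promoters of 155 of the genes were found in a RefSeq table of 300 bases around each start (250 before and 50 after it). The letters CG, counted on the plus strand and thus equally on the other, occurred at a median of 17 positions in the *Zfp* genes and 21 in 8568 genes tested. In the *Zfp* genes with a ratio above 2, the median was 14, and in those with a ratio below 1 it was 23. At least 20 such positions were found in 38.7% of *Zfp* promoters, 54.9% of those of genes tested and 26.8% of all 27025 promoters in the table. The Spearman coefficient of the log2 ratio with promoter GC content was -0.38, nearer to 0 than that with transcript GC content.

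Of the KRAB pathway itself, 18 of 19 listed corepressor symbols were in the table, and all of these genes met the count rule. 12 were above 2-fold, beside 21.1% of all genes, none was below 0.5, and the median log2 ratio was 1.08. *Trim28*, the hub of the complex, was lower in AAV-*Wee1-AS*, with 3857 and 2210 counts and a log2 ratio of -0.54 (-0.62 to -0.46). *Setdb1*, its histone methyltransferase, had 582 and 718 counts (0.56), and *Atf7ip*, the partner of SETDB1, 889 and 1551 (1.06). The HP1 genes *Cbx5*, *Cbx3* and *Cbx1* had log2 ratios of 2.23, 1.38 and 1.03. *Tasor* and *Mphosph8*, of the HUSH silencing complex, had 106 and 459 counts (2.35) and 173 and 388 (1.42). *Dnmt1* and *Uhrf1*, which maintain DNA methylation, were lower, at -0.22 and -0.35. GC content was 38.9% in *Tasor* and 59.6% in *Trim28*, but 56.1% in *Chd3*, which had a log2 ratio of 1.24. After removal of the trends the median was 0.31, *Trim28* stood at 0.16, *Cbx5* at 0.49, and *Chd3* (1.25) was the 1 gene of the 18 above 2-fold, beside 4.69% of all genes.

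**Figure D5:**
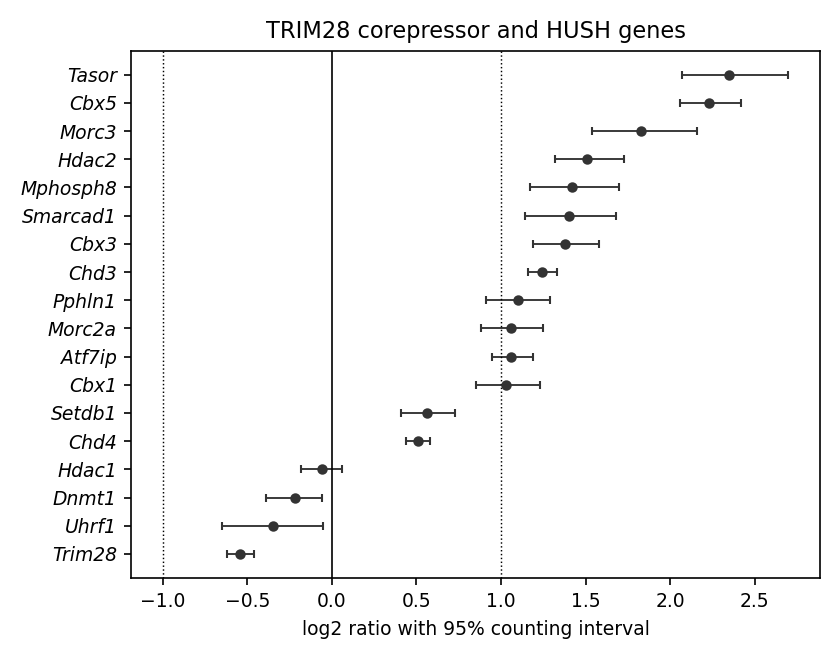
Log2 ratio, AAV-*Wee1-AS* over AAV-GFP, with its 95% counting interval (x axis) for the 18 genes of the TRIM28 corepressor and HUSH list (y axis). *Tasor* and *Cbx5* lie above 2, *Trim28* at -0.54, and 12 of the 18 lie right of the dotted line at 1.

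Other RNAs of these libraries also differed, in both directions. The nuclear-retained RNAs *Malat1* (148 and 4652 counts, log2 ratio 5.22) and *Neat1* (380 and 2390, 2.91) were higher in AAV-*Wee1-AS*. After removal of the GC content and length trends they stood at 3.62 and 1.52. The others of that list missed the count rule, *Kcnq1ot1* with 0 and 25 counts, *Meg3* with 7 and 5, and *Xist* with 0 in both libraries. All 5 erythroid markers were lower, with a summed level of 3357 TPM in AAV-GFP and 1789 in AAV-*Wee1-AS*. With the GC content and length trends removed, the median log2 ratio of the erythroid markers moved from -0.89 to -0.08. *Alas2* then turned from -0.37 to 0.15, whereas *Hbb-bs* and *Hbb-bt* stood at -0.51 and -0.53. Of the 6 stellate cell and fibroblast markers, *Col1a1*, *Col3a1* and *Acta2* were below 0.5 and *Lrat* and *Rgs5* above 2, beside 5.19% and 21.1% of all genes. Their summed level was 152 and 125 TPM. With the trends removed, *Lrat* and *Rgs5* came inside 2-fold, at 0.03 and 0.26. Then 4 of the 6 were below 0.5, with *Dcn* (from 0.33 to -1.23) added, beside 5.52% of all genes. The 6 Kupffer cell and macrophage markers summed to 236 and 239 TPM, with *Timd4* and *Vsig4* above 2-fold, beside 21.1% of all genes. With the trends removed, *Timd4* and *Vsig4* came inside 2-fold, at 0.72 and 0.87. The 5 endothelial markers summed to 126 and 104 TPM and the 5 cholangiocyte markers to 44.1 and 37.9 TPM. T cell, B cell and neutrophil markers were all under the count rule, and 1 neutrophil marker was at 0 in both libraries. The part of these differences in the *Zfp* ratios was not tested. In bulk liver, fewer cells of a type and less RNA per cell cannot be told apart.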

How the data were processed

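Liver poly-A RNA was sequenced from 1 AAV-GFP and 1 AAV-*Wee1-AS* library. The deposited table lists estimated counts, FPKM and TPM of both libraries for 129299 RefSeq transcripts of mm10. The estimated counts were deposited without normalization. They track FPKM multiplied by length, rounded up, and are thus divided among overlapping transcripts. FPKM corrects for transcript length and library size and TPM also equalizes the sums, both as computed by the authors. The submitters' processing notes name Trimmomatic 0.38, HISAT2 2.1.0, SAMtools 1.9 and StringTie 2.1.3b. The kit keeps the strand, and whether the counting used it is not given in the sources used here.

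Counts were summed per symbol and scaled by TMM (edgeR 4.0.16, R 4.3.3; factors 1.02 and 0.980 over all genes). A gene was called above a ratio of 2 or below 0.5 with a prior count of 2. Counts on 1 library per group allow no test, so neither the quasi-likelihood test nor a paired fit was run. GC content and length are of the longest GENCODE vM21 transcript, and trends were removed by lowess (span 0.3, 5 cycles). Protein patterns were searched in translated GENCODE coding sequences, in place of the protein table that had been planned. The finger pattern is C, 2 to 4 residues, C, 12 residues, H, 3 to 5 residues, H. The finger stretches leave out genes on chromosome 18. Near copies were found with blastn 2.17.0 (at least 95% identity over at least 200 bases). The steps were tested on simulated data. Tried instead were scaling by library totals, DESeq2 1.42.0, upper quartile, a prior count of 0.5, other count rules, TPM or FPKM with a pseudocount of 1, 1 transcript per gene, curated transcripts and trend removal. The genes named are the 10 highest and 10 lowest ratios, the 10 highest summed counts, the members of the lists, the neighbours of the count rule and near-identical pairs, and the exceptions are listed with the results. Tallies of named genes leave out the neighbours and the near-identical pairs unless they also belong to another of these groups. Genes and lists were chosen with earlier results of these data known.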

Additional observations from a re-analysis of the deposited data

How the results depend on the processing

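No paired analysis was possible because each group has 1 library, and for the same reason no library could be left out. With library totals, DESeq2 size factors, the upper quartile and a prior count of 0.5, between 79 and 89 *Zfp* genes were above 2-fold with medians of 0.69 to 0.91, beside 17.4% to 21.4% of all genes. The upper quartile moved the median of all genes to -0.24 and gave 4 genes below 0.5, beside 10.9% of all genes. With at least 200 counts in AAV-GFP alone, 11 genes were above 2-fold and the median turned to -0.06, beside a median of -0.15 in all genes under this rule. The median difference from the *Zbtb*, *Klf* and *Zc3h* genes then turned from 0.64 to -0.15. The median difference between genes under 45% GC and those of 55% or more moved from 2.29 to 1.34. Without a count minimum, 188 of 366 symbols (51.4%, beside 23.5% of all genes) were above 2-fold and 6 below 0.5 (beside 10.5%). With TPM plus 1, which understates low genes, 43 (22.8%, beside 14.1% of all genes) were above and 1 below, with a median of 0.53 and a GC difference of 1.22. With FPKM plus 1, 16 (8.47%, beside 9.17%) were above and 0 below, with 0.35 and 0.94. The excess over all genes in the share above 2-fold was then gone, whereas the median of all genes was -0.07. The transcript with the most counts gave 58 of 139 genes above 2-fold and 10 below 0.5 (beside 20.9% and 9.21% of all genes), and curated transcripts 61 and 7 of 144 (beside 1947 and 760 of 9741 genes). With the trends removed, 25 genes were above 2-fold, the median was 0.32, the GC difference 0.17, and the difference by KRAB-like sequence (0.74 with the stricter pattern) 0.26. The difference from the *Zbtb*, *Klf* and *Zc3h* genes was then 0.17. Of the 59 genes named for their ratio, summed count or list, 20 changed sign, *Zfp318* (-0.19) and *Zfp451* (-0.18) among those past 2-fold. The near-identical genes *Zfp874b* (1.27 to -0.02) and *Zfp965* (0.89 to -0.36), outside the 59, also turned. With both trend removal and 200 counts in AAV-GFP alone, a setting chosen after seeing the data, 2 genes were above 2-fold and the median was 0.11. Otherwise the KRAB difference was 0.52 with 200 AAV-GFP counts, 0.39 without a minimum, 0.36 with TPM, 0.30 with FPKM, 1.16 for the transcript with the most counts and 1.01 with curated transcripts. The broader pattern, also chosen after seeing the data, gave 1.20. Apart from the settings' own construction, the cause of these shifts was not tested.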
